A study of Mus musculus with 3 samples.

Results

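The unfolded protein response and the endoplasmic reticulum (ER) chaperones were followed through 34 genes among the 32286 measured in mouse lavage cells. The genes were chosen by name as 11 chaperones, 4 disulfide isomerases, 8 genes of ER-associated degradation, 4 genes of the stress sensors and Xbp1, and 7 genes of the PERK-ATF4 branch. The choice goes by gene name, but it was made with earlier results of these data known. All 34 were found among the features. The ER folds secreted and membrane proteins with chaperones such as Hspa5 (BiP), and isomerases form their disulfide bonds. When unfolded protein accumulates, 3 membrane sensors respond: ATF6 is cleaved into a transcription factor, IRE1 (encoded by Ern1) splices the Xbp1 transcript, and PERK (encoded by Eif2ak3) phosphorylates eIF2α, which slows translation and favours that of ATF4. ATF6 and XBP1 are known inducers of chaperones and degradation genes, and ATF4 of amino acid genes and of Ddit3 (CHOP). In the lung this response is best known from secretory epithelium and plasma cells, and macrophages and dendritic cells also use its branches.

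The cells came from bronchoalveolar lavage of mice 14 days after bleomycin was instilled into the airways to cause pulmonary fibrosis, and all 3 groups received it. WT DMSO cells came from wild-type mice with the vehicle DMSO, WT GW5074 cells from wild-type mice given GW5074, a small-molecule kinase inhibitor, and KO DMSO cells from Clec7a knockout mice (Clec7a encodes the β-glucan receptor Dectin-1) with DMSO. The lavage of each group was pooled before cells with CD11b or CD11c on their surface were sorted, and each pool gave 1 droplet library of 3' transcript ends. The strain, age, sex, dose and number of mice are not given in the sources used here, and the labels do not give the kind of deletion. With 1 pool per group, a difference between groups cannot be told apart from a difference between pools or runs.

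Unique molecular identifiers (UMIs, counted molecules) totalled 39180331, 45462817 and 34859676 over 13504, 17809 and 11678 barcodes in the WT DMSO, WT GW5074 and KO DMSO libraries, and every later list of 3 values keeps this order. Clec7a stood at 421, 647 and 10.7 CPM (UMIs scaled to a common total) over all kept cells, so the library labelled KO held little Clec7a transcript. After filtering, 42888 cells remained, and 27825 of them fell into 9 classes by their marker genes. Class names mean cells like that type: resident alveolar macrophage, monocyte-derived macrophage, monocyte, neutrophil, conventional dendritic cell 1 and 2, migratory dendritic cell, T cell and B cell. T and B cells are not defined by CD11b or CD11c, the markers of the sort. All markers of each class measured were detected in it in every library. Neutrophils made up 23.1% of the WT DMSO cells against 1.01% and 1.92% in the others, and neutrophil marker transcripts were also higher in the other classes there. The summed level of 12 neutrophil markers in monocyte-derived macrophages was 2209, 392 and 391 CPM. Of the barcodes, 154 were shared by the 2 WT libraries, 80 by WT DMSO and KO DMSO, and 119 by WT GW5074 and KO DMSO.

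Chaperone promoters are known for the ER stress response element (ERSE), a CCAAT box and a CCACG box with 9 bases between them, which NF-Y and ATF6 or XBP1 bind. The 250 bases before the transcript start were searched on both strands in RefSeq promoter windows (GRCm38.p6), which were found for 30 of the 34 members. This pair of boxes occurred in 9 members and in 37 of all 32851 windows (0.113%). The sites are shown because the element was present in a larger share of the members than of all windows. Chaperones and degradation genes are known targets of ATF6 and XBP1, so that larger share is no independent finding. Each is written 5′ to 3′ in the direction of the motif, with the 2 boxes in capitals:
Hspa5 (chr2:34772025-34772043): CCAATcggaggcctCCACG
Hsp90b1 (chr10:86705638-86705656): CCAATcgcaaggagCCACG
Hsp90b1, second site (chr10:86705533-86705551): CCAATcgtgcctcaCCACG
Calr (chr8:84847075-84847093): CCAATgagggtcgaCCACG
Canx (chr11:50325800-50325818): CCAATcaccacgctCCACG
Creld2 (chr15:88819520-88819538): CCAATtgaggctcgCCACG
Dnajc3 (chr14:118937827-118937845): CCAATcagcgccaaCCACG
Pdia6 (chr12:17266491-17266509): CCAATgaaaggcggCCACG
Syvn1 (chr19:6046532-6046550): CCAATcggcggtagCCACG
Derl3 (chr10:75893242-75893260): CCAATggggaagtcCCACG

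Herpud1, which acts in ER-associated degradation, had no complete ERSE within its window. That window ends in CCAAT, the spacing of the ERSE and CCAC, so its edge may cut a site. Bases past the edge were not searched, so a lack of the ERSE is not shown for this gene. Herpud1 held the compact form ERSE-II, ATTGG and CCACG with 1 base between them, which occurred in 10 of all windows (0.0304%). It also held TGATGNAAN, the core of the amino acid response element that ATF4 binds with C/EBP proteins, as did Asns and Chac1, against 3.44% of all windows. The XBP1 element TGACGTGG was in no member window and in 0.563% of all windows. The single CCAAT box, which is contained in the ERSE, was in 25 members and in 33.8% of windows. The windows of Hspa5 and Herpud1 are printed because these genes went opposite ways between cell classes. Both run along the + strand, at chr2:34771840-34772089 and chr8:94386179-94386428, with the matched elements in capitals:
Hspa5: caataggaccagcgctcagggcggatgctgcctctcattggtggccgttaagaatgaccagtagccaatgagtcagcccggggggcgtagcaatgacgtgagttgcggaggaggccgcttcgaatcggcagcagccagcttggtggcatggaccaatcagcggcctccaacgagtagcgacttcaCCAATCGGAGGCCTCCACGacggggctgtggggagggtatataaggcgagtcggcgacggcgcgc
Herpud1: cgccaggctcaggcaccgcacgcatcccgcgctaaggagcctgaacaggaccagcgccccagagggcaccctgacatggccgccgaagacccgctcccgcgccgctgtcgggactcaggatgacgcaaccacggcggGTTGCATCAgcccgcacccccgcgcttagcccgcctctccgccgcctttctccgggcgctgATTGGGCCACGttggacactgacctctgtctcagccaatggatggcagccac

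The first question was how the branches differ between cell classes. Summed chaperone levels were highest in resident alveolar macrophages, at 2801, 2909 and 3429.9 CPM, and lowest in migratory dendritic cells, at 810.3, 1086 and 1064 CPM. The disulfide isomerases were highest in monocyte-derived macrophages in WT DMSO and in monocytes in the other libraries, and migratory dendritic cells had the least of them in all 3, with 244, 293 and 253 CPM. Degradation genes were near level, from 410.3 CPM in the B cells of KO DMSO to 731 CPM in the conventional dendritic cells 2 of WT GW5074. The sensor group, Xbp1 included, was highest in the neutrophils of WT DMSO, at 665, 391 and 475 CPM, and lowest in migratory dendritic cells in every library. The PERK-ATF4 genes were highest in neutrophils in WT DMSO and KO DMSO and in migratory dendritic cells in WT GW5074, where these 2 classes stood at 393, 280.0 and 289 CPM and 282, 320.1 and 283 CPM.

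**Figure D1:**
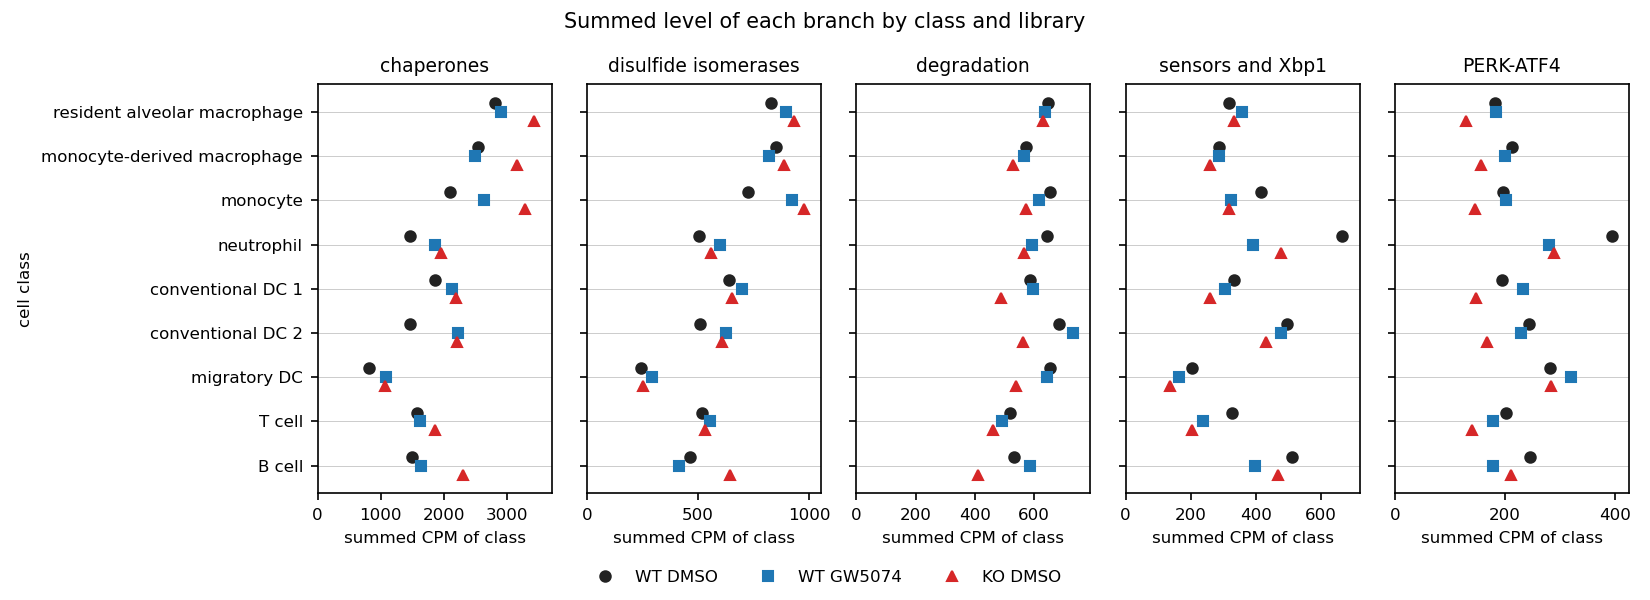
Summed level of the members of each branch (CPM of the class, linear axis from 0) in the 9 cell classes (rows), with 1 point per library. In every library migratory dendritic cells have the lowest chaperone, isomerase and sensor levels, while their degradation and PERK-ATF4 levels lie within or above the range of the other classes.

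Each class was compared with the mean of the other 8 in a fit of edgeR's quasi-likelihood test to UMI sums of 27 class and library pairs, with library as a term. A member was called at a Benjamini-Hochberg adjusted p under 0.05 and at least 1.5-fold. The replicates of a class are the 3 libraries, which also differ in treatment or genotype. Library is a term, so p-values rest on the scatter of the 27 sums left after class and library, with 16 residual degrees of freedom. That scatter is taken over all classes and is not the spread within the class named. Since every class enters the others' mean, calls in 1 direction for a class shift the others the opposite way. The filter on low counts left 30 members. Derl3, Trib3, Asns and Chac1 did not pass it in any contrast.

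Migratory dendritic cells were the class with the most calls, 15 members lower and 5 higher, where 23.7% and 23.6% of all 10920 genes were called. The median over the 30 members was -0.61 on the log2 scale, against 0.00 for all genes. In resident alveolar macrophages 5 members were higher (background 14.9%) and 1 was lower (16.1%), and in monocyte-derived macrophages 7 were higher (12.4%) and 3 lower (11.2%). Monocytes had 4 higher (9.55%) and 3 lower (7.7%), and neutrophils 6 higher (14.3%) and 5 lower (12.0%). Conventional dendritic cells 1 had 4 higher (14.8%) and none lower (13.8%; 6 were lower at an unadjusted p under 0.05 and 0 by DESeq2). Conventional dendritic cells 2 had 4 higher (7.15%) and 1 lower (3.15%). T cells had none higher (11.3%; 0 at an unadjusted p under 0.05 and 0 by DESeq2) and 3 lower (5.07%). B cells had 4 higher (7.98%) and 5 lower (6.57%). The median over members was 0.37 in resident alveolar macrophages and 0.27 in monocyte-derived macrophages, against -0.03 and -0.04 over all genes.

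**Figure D2:**
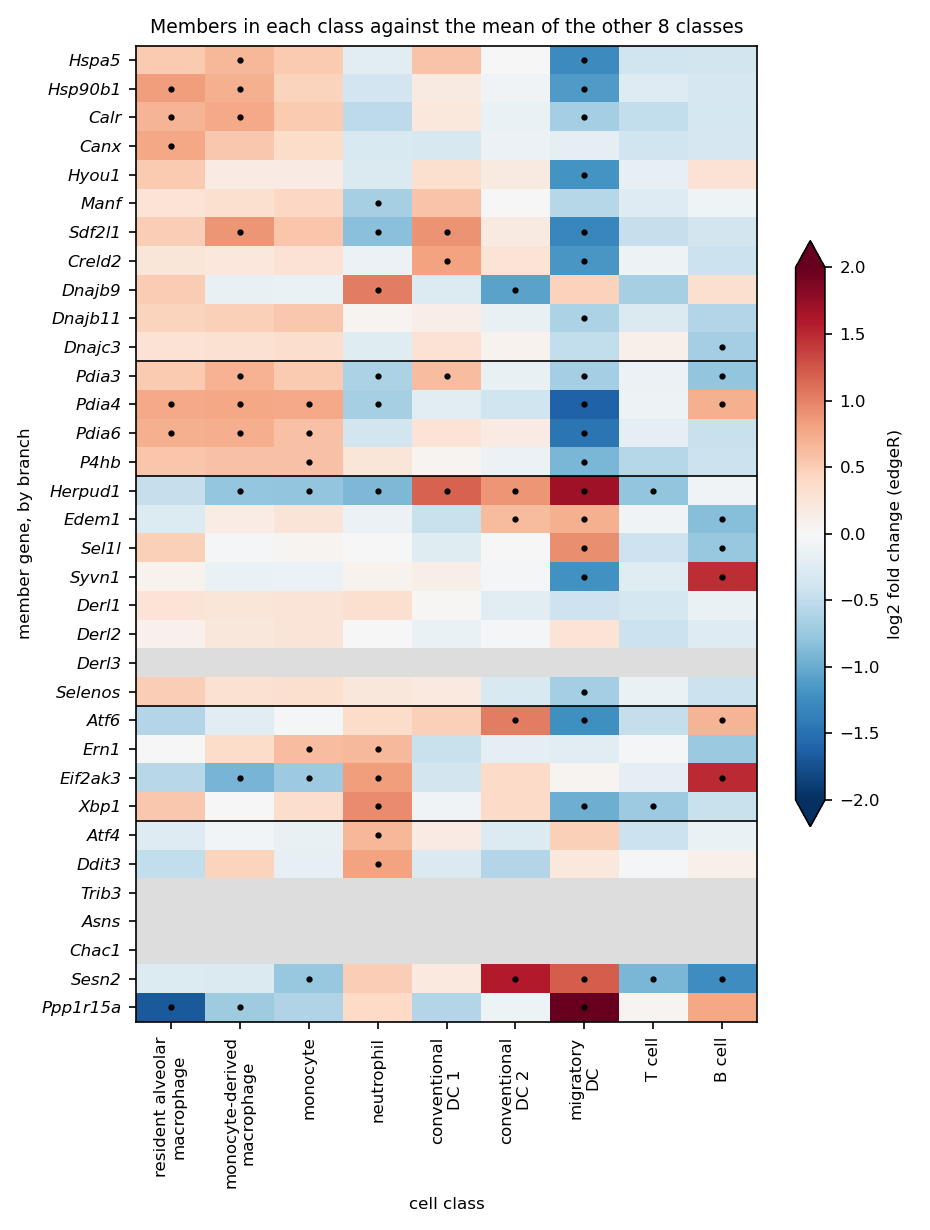
Log2 fold change (colour, red higher and blue lower) of each member gene (rows, grouped by branch with black lines) in each cell class (columns) against the mean of the other 8 classes. Black dots mark calls and grey marks genes that the filter removed. The migratory dendritic cell column is blue through chaperones and isomerases and red for Herpud1, Edem1, Sel1l, Sesn2 and Ppp1r15a.

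Among the chaperones, 7 of 11 fell in migratory dendritic cells and none rose. Hspa5, the HSP70 of the ER lumen that also holds the 3 sensors inactive, stood at 107, 122 and 144 CPM there, and the other 24 sums ranged from 208 to 733 CPM (median 408). The ranges did not overlap, and the difference was log2 -1.28 ± 0.12 SE, edgeR adjusted p = 5.65e-11. Hsp90b1 (GRP94), the HSP90 of the ER, which folds integrins and Toll-like receptors, stood at 149.6, 244 and 231 CPM in migratory dendritic cells and at 333 to 929 CPM (median 556) elsewhere. Its difference was log2 -1.13 ± 0.10 SE, edgeR adjusted p = 1.24e-11. The same class was lowest in every library for both genes.

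The smaller chaperone partners followed them. Creld2, a secreted factor induced by ER stress, stood at 11.2, 13.4 and 16.4 CPM in migratory dendritic cells against 23.9 to 60.0 CPM (median 36.3), a difference of log2 -1.17 ± 0.14 SE, edgeR adjusted p = 3.05e-09. Sdf2l1, part of the BiP chaperone complex, was at 16.7, 24.0 and 18.2 CPM and differed by log2 -1.31 ± 0.13 SE, edgeR adjusted p = 1.22e-10, although the KO DMSO neutrophils were lower still at 13.3 CPM. Hyou1, a nucleotide exchange factor for Hspa5, was at 6.41, 9.99 and 8.66 CPM (-1.19 ± 0.14 log2 units). The lectin chaperone Calr was at 143, 193 and 185 CPM (-0.67 ± 0.10) and the Hspa5 co-chaperone Dnajb11 at 28.1, 29.1 and 31.5 CPM (-0.64 ± 0.10). Hyou1 and Dnajb11 did not overlap the other classes, while Calr overlapped the WT DMSO neutrophils. Without the WT DMSO library Dnajb11 was at -0.58 and was no longer called. Of the 4 chaperones not called in this class, Dnajb9, another Hspa5 co-chaperone, was at 31.5, 35.4 and 41.1 CPM, or 0.45 ± 0.13 against the other classes. Canx, Manf and Dnajc3 lay below 0, at -0.20, -0.58 and -0.49.

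All 4 disulfide isomerases fell in migratory dendritic cells without overlap. Pdia4 stood at 15.0, 18.3 and 15.5 CPM against 32.6 to 114 CPM (median 60.5), a difference of log2 -1.62 ± 0.13 SE, edgeR adjusted p = 1.9e-13. Pdia6 stood at 30.4, 49.2 and 38.2 CPM against 73.4 to 212 CPM (median 141), a difference of log2 -1.46 ± 0.10 SE, edgeR adjusted p = 2.51e-14. Pdia3, which also belongs to the MHC class I loading complex, was at 121, 136 and 146 CPM (-0.68 ± 0.094) and P4hb (PDI itself) at 77.8, 90.2 and 52.8 CPM (-0.91 ± 0.11). The gap was narrow for both, since the lowest other sums were 149 CPM for Pdia3 and 90.3 CPM for P4hb.

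The degradation branch split in this class, with 3 members higher and 2 lower. Herpud1 stood at 185, 172 and 142 CPM in migratory dendritic cells against 33.5 to 165 CPM (median 53.1) elsewhere, a difference of log2 1.69 ± 0.074 SE, edgeR adjusted p = 4.39e-20. Only conventional dendritic cells reached the same range, with 157, 153 and 103 CPM in type 1 (1.18 ± 0.083) and 165, 84.4 and 137 CPM in type 2 (0.89 ± 0.14). Herpud1 was therefore higher in all 3 dendritic classes and lower in 4 others: monocyte-derived macrophages (-0.77 ± 0.092), monocytes (-0.78 ± 0.14), neutrophils (-0.89 ± 0.14) and T cells (-0.79 ± 0.15). In monocyte-derived macrophages it was at 49.2, 44.0 and 36.6 CPM and in T cells at 57.4, 48.3 and 36.4 CPM. Without WT DMSO the neutrophil value was -0.74 and no longer called. Sel1l, the scaffold of the HRD1 ubiquitin ligase, stood at 141, 131 and 107 CPM (0.93 ± 0.067) and Edem1, which extracts misfolded glycoproteins, at 154, 164 and 134 CPM (0.71 ± 0.073). Both overlapped other classes. Syvn1, which encodes HRD1 itself and carries an ERSE, went the opposite way from its partner Sel1l, at 9.46, 7.99 and 8.88 CPM (log2 -1.22 ± 0.14 SE, edgeR adjusted p = 1.89e-09). Every other sum had at least 11.7 CPM. That lowest value is from the B cells of KO DMSO, a sum of 85297 UMIs, where counting error is wide. Selenos, a membrane selenoprotein of the retrotranslocation complex, was also lower, at 70.3, 67.9 and 51.3 CPM (-0.67 ± 0.083). Derl1 and Derl2, channel subunits, were called in no class, and Derl3 had 0 to 4 UMIs in each of the 27 sums.

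Of the sensors, Atf6 fell in migratory dendritic cells, to 45.7, 35.8 and 27.3 CPM (log2 -1.23 ± 0.12 SE, edgeR adjusted p = 3.07e-11), and rose in conventional dendritic cells 2, at 165, 209.8 and 199.6 CPM (log2 1.02 ± 0.15 SE, edgeR adjusted p = 5.83e-06). Xbp1, the transcription factor of the IRE1 branch, stood at 67.4, 59.0 and 43.9 CPM in migratory dendritic cells, below all other sums (lowest 78.7 CPM), a difference of log2 -0.98 ± 0.097 SE, edgeR adjusted p = 8.94e-11. The data count Xbp1 transcripts from their 3' ends and do not show splicing. Ern1 and Eif2ak3 were not called in this class, at -0.22 and 0.058.

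The PERK-ATF4 branch held the largest difference of any member in any class. Ppp1r15a (GADD34), which recruits a phosphatase to eIF2α and so ends the translational block, stood at 94.1, 102 and 95.4 CPM in migratory dendritic cells against 5.65 to 58.6 CPM (median 19.6) elsewhere. The ranges did not overlap, and the difference was log2 2.43 ± 0.097 SE, edgeR adjusted p = 2.47e-21. At the other end were resident alveolar macrophages, with 5.65, 11.6 and 10.5 CPM, below every other sum (log2 -1.68 ± 0.16 SE, edgeR adjusted p = 8.98e-11). Sesn2, a stress-induced inhibitor of mTORC1 signalling, was highest in conventional dendritic cells 2, at 57.7, 62.7 and 57.4 CPM (log2 1.58 ± 0.19 SE, edgeR adjusted p = 6.43e-08), without overlap with other classes. Migratory dendritic cells came next for Sesn2, at 42.0, 36.3 and 29.1 CPM (1.20 ± 0.098). Atf4 and Ddit3 themselves were not called in migratory dendritic cells, at 129, 158 and 126 CPM (0.48 ± 0.098) and 16.6, 20.5 and 28.0 CPM (0.21 ± 0.13). Ppp1r15a overlaps Tulp2 on the opposite strand and Ddit3 overlaps Mars, and whether strand was used in the counting is not given in the sources used here.

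**Figure D3:**
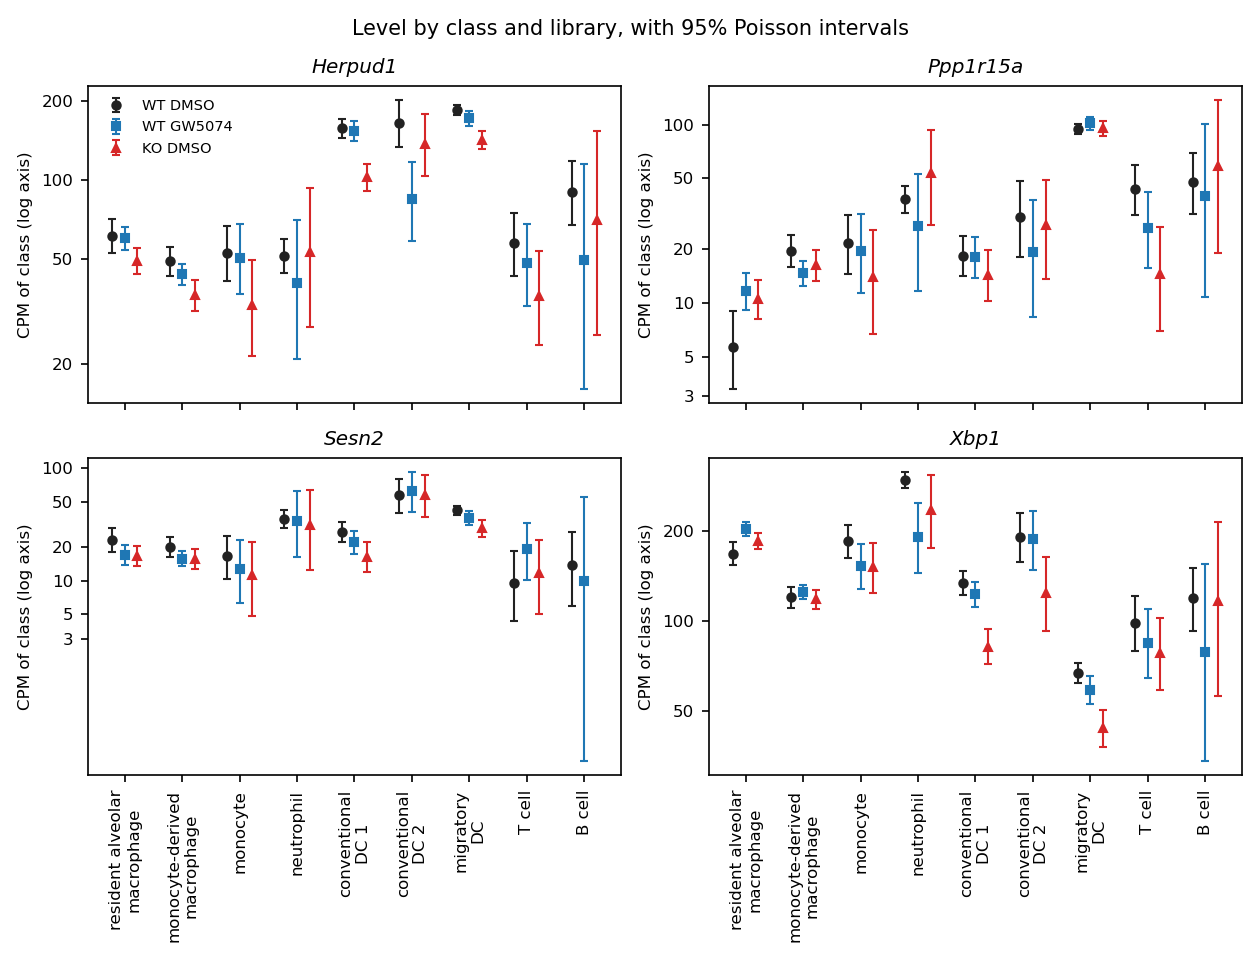
Level of Herpud1, Ppp1r15a, Sesn2 and Xbp1 (CPM of the class, log axis) in the 9 cell classes, 1 point per library with its 95% Poisson interval, which covers counting error only; a count of 0 (Sesn2, B cells of KO DMSO) is not drawn. Herpud1 is highest in the 3 dendritic classes of each library, Ppp1r15a at 94.1 to 102 CPM in migratory dendritic cells, and Xbp1 highest in neutrophils of WT DMSO.

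In the macrophage classes the members called higher were chaperones and isomerases, which made up 11 and 4 of the 30 members tested. The count in resident alveolar macrophages, 5 of 30, was close to the 14.9% of all genes called higher there. In resident alveolar macrophages Hsp90b1 stood at 851, 889 and 929 CPM, above every other sum (highest 832 CPM; log2 0.83 ± 0.087 SE, edgeR adjusted p = 7.18e-10). Canx, the membrane-bound lectin chaperone, stood at 638, 598 and 527 CPM, also without overlap (log2 0.77 ± 0.084 SE, edgeR adjusted p = 1.38e-09). Calr (458, 516 and 580.4 CPM; 0.67 ± 0.090), Pdia4 (89.1, 92.8 and 95.5 CPM; 0.75 ± 0.097) and Pdia6 (172, 202 and 206 CPM; 0.71 ± 0.084) were higher with overlap. Without WT DMSO, Calr and Pdia6 were both at 0.58 and no longer reached 1.5-fold.

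Monocyte-derived macrophages rose in 4 of the same 5 genes and in 3 more. Hspa5 was at 434, 377 and 711 CPM (log2 0.67 ± 0.10 SE, edgeR adjusted p = 2.36e-06), Sdf2l1 at 77.7, 74.9 and 124 CPM (log2 0.88 ± 0.10 SE, edgeR adjusted p = 7.36e-09) and Pdia3 at 372, 342 and 406 CPM (log2 0.70 ± 0.083 SE, edgeR adjusted p = 1.44e-08). Hsp90b1 (0.72 ± 0.088), Calr (0.75 ± 0.089), Pdia4 (0.77 ± 0.094) and Pdia6 (0.73 ± 0.083) were called as well, and Canx, at 0.54, was not. Pdia6 was at 0.52 without WT DMSO. The PERK gene Eif2ak3 fell, to 37.6, 31.3 and 24.3 CPM (log2 -0.92 ± 0.096 SE, edgeR adjusted p = 1.05e-09), as did Ppp1r15a, to 19.6, 14.8 and 16.3 CPM (log2 -0.71 ± 0.13 SE, edgeR adjusted p = 4.41e-05). Whether the macrophage classes differ from each other was not tested. Monocytes rose in 3 isomerases, Pdia4 (63.4, 114 and 103 CPM; 0.76 ± 0.14), Pdia6 (138, 182 and 212 CPM; 0.59 ± 0.11) and P4hb (261, 220.5 and 223 CPM; 0.59 ± 0.11), and in Ern1 (49.2, 60.0 and 60.0 CPM; 0.61 ± 0.15). They fell in Eif2ak3 (47.7, 30.0 and 36.3 CPM; -0.73 ± 0.15) and Sesn2 (16.4, 12.7 and 11.2 CPM; -0.76 ± 0.21). Most of these sat close to the 1.5-fold limit. P4hb was not called without WT DMSO (0.53) or KO DMSO (0.52), and Ern1 not without WT GW5074 (0.47) or KO DMSO (0.52). Pdia6 was not called without WT DMSO (0.57), nor without either of the others (both 0.55). Sesn2 kept its size but was not called without WT DMSO (-0.78) or WT GW5074 (-0.74).

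In neutrophils the 6 members called higher were 3 of the sensor group, 2 of the PERK-ATF4 branch and Dnajb9, and the 5 called lower were 4 folding genes and Herpud1. Xbp1 stood at 297, 192 and 235 CPM (log2 0.94 ± 0.11 SE, edgeR adjusted p = 1.18e-08), with the WT GW5074 value inside the range of resident alveolar macrophages. Eif2ak3 was at 139, 54.0 and 93.3 CPM (0.83 ± 0.12), Ern1 at 67.0, 50.6 and 35.5 CPM (0.65 ± 0.14), Atf4 at 269.5, 175 and 124 CPM (0.67 ± 0.13) and Ddit3 at 35.2, 30.4 and 71.1 CPM (0.81 ± 0.19). Dnajb9, a target of XBP1, was at 73.3, 13.5 and 71.1 CPM (1.02 ± 0.18), high in both DMSO libraries and lowest of all classes in WT GW5074. The WT GW5074 value comes from few counts, in a sum of 296387 UMIs. Pdia3 (171, 209 and 182 CPM; -0.63 ± 0.12), Pdia4 (32.6, 70.9 and 35.5 CPM; -0.67 ± 0.18), Manf (49.2, 47.2 and 119.9 CPM; -0.67 ± 0.14) and Sdf2l1 (30.9, 57.4 and 13.3 CPM; -0.84 ± 0.19) were lower. These calls rest largely on WT DMSO, which holds 3103 of the neutrophils against 179 and 223. Without it, Xbp1 and Pdia3 were still called. Eif2ak3 was then at 0.39, Ern1 at 0.29, Atf4 at 0.29, Ddit3 at 0.95 and Dnajb9 at 0.15, none of them called. Pdia4 was at -0.20, Manf at -0.56 and Sdf2l1 at -0.82, also not called, and without KO DMSO Pdia3 was at -0.58 and not called. Neutrophils were also shallow, with median depths of 673, 1001 and 636 UMIs per cell.

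The remaining classes differed in fewer members. In conventional dendritic cells 1, Sdf2l1 (76.8, 82.5 and 104 CPM; 0.89 ± 0.11), Creld2 (44.0, 57.6 and 53.6 CPM; 0.80 ± 0.12) and Pdia3 (331, 319.6 and 370.1 CPM; 0.62 ± 0.085) rose beside Herpud1, and Pdia3 was at 0.56 and not called without WT DMSO. In conventional dendritic cells 2, Edem1 (179.8, 251 and 127 CPM; 0.64 ± 0.12) rose and Dnajb9 (15.3, 21.7 and 17.5 CPM; -1.07 ± 0.35) fell. Edem1 was at 0.47 without WT GW5074, and Dnajb9 at -0.85 and -0.95 without WT DMSO and KO DMSO, none of these called. B cells stood out for Eif2ak3, at 172, 178 and 199 CPM, above every other sum (log2 1.49 ± 0.17 SE, edgeR adjusted p = 3.17e-08), and for Syvn1, at 68.3, 89.1 and 11.7 CPM (log2 1.47 ± 0.26 SE, edgeR adjusted p = 7.64e-05). The KO DMSO value of Syvn1 comes from a sum of 85297 UMIs. It lies below the 35.2 CPM that a count of 0 would allow there, so its rank among the sums is not known. Atf6 (193, 129 and 117 CPM; 0.68 ± 0.20) and Pdia4 (101, 59.4 and 46.9 CPM; 0.72 ± 0.24) were called higher in B cells. Of these 4, only Eif2ak3 held without WT DMSO, which left Syvn1 at 1.29, Atf6 at 0.37 and Pdia4 turned to -0.33. B cells fell in Pdia3 (160.4, 149 and 199 CPM; -0.79 ± 0.15), Edem1 (90.5, 49.5 and 46.9 CPM; -0.84 ± 0.19), Sel1l (58.0, 89.1 and 58.6 CPM; -0.76 ± 0.19), Dnajc3, which inhibits PERK (75.1, 99.0 and 117 CPM; -0.68 ± 0.19), and Sesn2 (13.7, 9.90 and 0 CPM; -1.25 ± 0.39). The Sesn2 count of 0 in KO DMSO allows up to 35.2 CPM, counting error only. Without WT DMSO, Sel1l (-0.49) and Dnajc3 (-0.44) were not called, and Sesn2 was not called without any library in turn, at -2.27, -1.25 and -1.07. The WT GW5074 and KO DMSO libraries held only 71 and 51 B cells. T cells fell in Xbp1 (98.9, 85.0 and 78.7 CPM; -0.72 ± 0.14) and Sesn2 (9.57, 19.0 and 11.7 CPM; -0.91 ± 0.24) beside Herpud1, and Sesn2 was at -0.41 and not called without WT DMSO.

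Over the 27 sums, by log2(CPM + 1), the members most like Hspa5 in level were Pdia6 (Pearson r = 0.91), Calr (0.88), Hsp90b1 (0.88) and Pdia3 (0.85), among 16 members with at least 5 UMIs in every sum. Herpud1 (-0.50) and Atf4 (-0.35) were least like it. These are descriptions over sums that share libraries and classes. Of the 16, Pdia6, Calr, Hsp90b1, Dnajc3 (0.80) and Canx (0.51) carry an ERSE in their window. Pdia3, P4hb (0.66) and Selenos (0.59) do not, and all 3 were more like Hspa5 than Canx was.

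The second question was how these genes differed in the Clec7a knockout and with GW5074. With 1 library per group there is no test between groups. Ratios of CPM within a class are given on the log2 scale with exact 95% intervals, which cover counting error only. A pair of a member and a class was counted as higher or lower past 1.5-fold with an interval that excludes 1, provided that either library reached 10 CPM for the gene and that their UMIs summed to 20 or more. In bulk sums of a class, fewer expressing cells and less RNA per cell cannot be told apart. Both comparisons use the same WT DMSO library, so they share its deviations.

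Of 259 member and class pairs tested, 41 (15.8%) were higher in KO DMSO than in WT DMSO, where 3.85% of all gene and class pairs were, and 20 (7.72%) were lower, against 8.61%. For WT GW5074 over WT DMSO, 15 of 261 (5.75%) were higher against 4.26%, and 10 (3.83%) lower against 4.07%. The KO excess therefore lay on the higher side, and the genes with the most such pairs were Manf with 8 classes, Hspa5 with 7, and Hsp90b1, Creld2 and Pdia6 with 4 each. The KO ratio of all genes had a median below 0 in every class (-0.04 to -0.16), and scaling by TMM factors moved it by over 0.1 in several classes. In monocyte-derived macrophages it moved from -0.11 to 0.00, and 43.1% of called genes were then higher in place of 21.6%. In migratory dendritic cells it moved from -0.16 to -0.01 (41.9% in place of 20.2%), and in T cells from -0.15 to 0.00 (52.5% in place of 25.6%). In B cells it moved from -0.09 to -0.20.

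Per class, with the share of all genes in parentheses, members in KO DMSO were 5 higher (3.3%) and 1 lower (5.26%) in resident alveolar macrophages and 4 higher (1.76%) and 2 lower (6.4%) in monocyte-derived macrophages. Monocytes had 9 higher (5.19%) and 2 lower (10.7%), neutrophils 6 higher (5.08%) and 2 lower (6.86%), type 1 conventional dendritic cells 0 higher (4.22%) and 4 lower (9.8%), and those of type 2 had 7 higher (3.9%) and 3 lower (8.09%). Migratory dendritic cells had 3 higher (3.95%) and 3 lower (15.6%), T cells 2 higher (3.31%) and 3 lower (9.63%) and B cells 5 higher (3.89%) and 0 lower (4.12%). Higher counts stood above the background in every class but conventional dendritic cells 1. In T cells and migratory dendritic cells this rests on 2 and 3 members. All classes share the same KO DMSO and WT DMSO libraries, so they are not separate observations.

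Hspa5 stood at 399.7, 422 and 701 CPM in resident alveolar macrophages, a log2 ratio of 0.81, 95% interval 0.72 to 0.90 for KO over WT DMSO. In monocyte-derived macrophages it stood at 434, 377 and 711 CPM, a ratio of 0.71, 95% interval 0.64 to 0.79. Both times the WT GW5074 level lay within 1.5-fold of WT DMSO, and KO DMSO stood above both. Over 8 alternative settings the ratio ranged from 0.73 to 0.87 in the former class and from 0.62 to 0.81 in the latter. Hspa5 was higher in 7 of 9 classes, from 0.63 in T cells to 1.15 in monocytes, but in 4 under a stricter marker gate and in 4 with cells thinned to 1000 UMIs. The 2 exceptions were conventional dendritic cells 1 (435, 409 and 462 CPM; 0.089, 95% interval -0.021 to 0.20) and migratory dendritic cells (107, 122 and 144 CPM; 0.43, 95% interval 0.29 to 0.58).

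Manf, a small ER protein released under stress that binds Hspa5, was past the limit in the most classes, 8 of 9, or 4 with cells thinned to 1000 UMIs. It stood at 79.2, 95.1 and 175 CPM in resident alveolar macrophages (KO over WT DMSO 1.15, 95% interval 0.94 to 1.35) and at 81.6, 79.1 and 171 CPM in monocyte-derived macrophages (1.07, 95% interval 0.90 to 1.24). Among the 8, the ratio ran from 0.87 in conventional dendritic cells 2 (69.6, 89.2 and 127 CPM) to 1.35 in B cells (73.4, 39.6 and 188 CPM, from 16 KO DMSO against 43 WT DMSO UMIs). Conventional dendritic cells 1 had the smallest ratio again, with 107, 100.1 and 145 CPM (0.44, 95% interval 0.23 to 0.65). In migratory dendritic cells, where Hspa5 was not past the limit, Manf was at 38.6, 45.8 and 71.7 CPM (0.89, 95% interval 0.68 to 1.11). KO DMSO was the highest of the 3 libraries for Manf in all 9 classes. Its gene model (chr9:106838312-106891979, mm10) contains Rbm15b on the same strand. Rbm15b is listed with 0 UMIs over all cells, so reads of the 2 genes may not be told apart.

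Creld2 was higher in 4 classes. It stood at 33.9, 35.1 and 60.0 CPM in resident alveolar macrophages (0.82, 95% interval 0.50 to 1.15), 33.3, 29.1 and 55.5 CPM in monocyte-derived macrophages (0.74, 95% interval 0.47 to 1.02), 30.6, 42.7 and 60.0 CPM in monocytes (0.97, 95% interval 0.32 to 1.63) and 27.1, 50.6 and 54.9 CPM in conventional dendritic cells 2 (1.02, 95% interval 0.021 to 2.04). Sdf2l1 was higher in monocyte-derived macrophages, at 77.7, 74.9 and 124 CPM (0.68, 95% interval 0.50 to 0.86), and in monocytes, at 69.4, 55.4 and 119 CPM (0.77, 95% interval 0.33 to 1.21). Resident alveolar macrophages had 0.55, inside the limit. Dnajb9 was past the limit in resident alveolar macrophages alone, at 40.6, 40.1 and 63.8 CPM (0.65, 95% interval 0.36 to 0.96). With every cell thinned to 1000 UMIs the Creld2 ratio in resident alveolar macrophages was 0.19 and that of Dnajb9 0.43.

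Hsp90b1 was above 0 in all 9 classes but past the limit in 4: monocytes (0.60), neutrophils (0.61), migratory dendritic cells (0.62) and conventional dendritic cells 2 (0.68). In migratory dendritic cells it stood at 149.6, 244 and 231 CPM, so that both other libraries were above WT DMSO. Calr was past the limit in monocytes (339, 493 and 589 CPM; 0.80, 95% interval 0.60 to 0.99), conventional dendritic cells 2 (0.82) and B cells (0.94). Canx, Hyou1, Dnajb11 and Dnajc3 were past it in no class. Of the isomerases, Pdia6 was higher in 4 classes (monocytes 0.62, neutrophils 0.83, type 2 conventional dendritic cells 0.83 and B cells 1.44), and Pdia3 and Pdia4 in monocytes alone (0.74 and 0.70). P4hb was lower in conventional dendritic cells 2 (-0.75). Monocytes had 6 of 11 chaperones and 3 of 4 isomerases higher, the most of any class, from 203 KO DMSO against 362 WT DMSO cells. The stricter gate kept 63 and 177 monocytes in these libraries. Over all libraries the class held 6079 CPM of monocyte-derived macrophage markers, against 5280 CPM of monocyte markers. The part of mixed cells in these ratios was not tested.

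**Figure D4:**
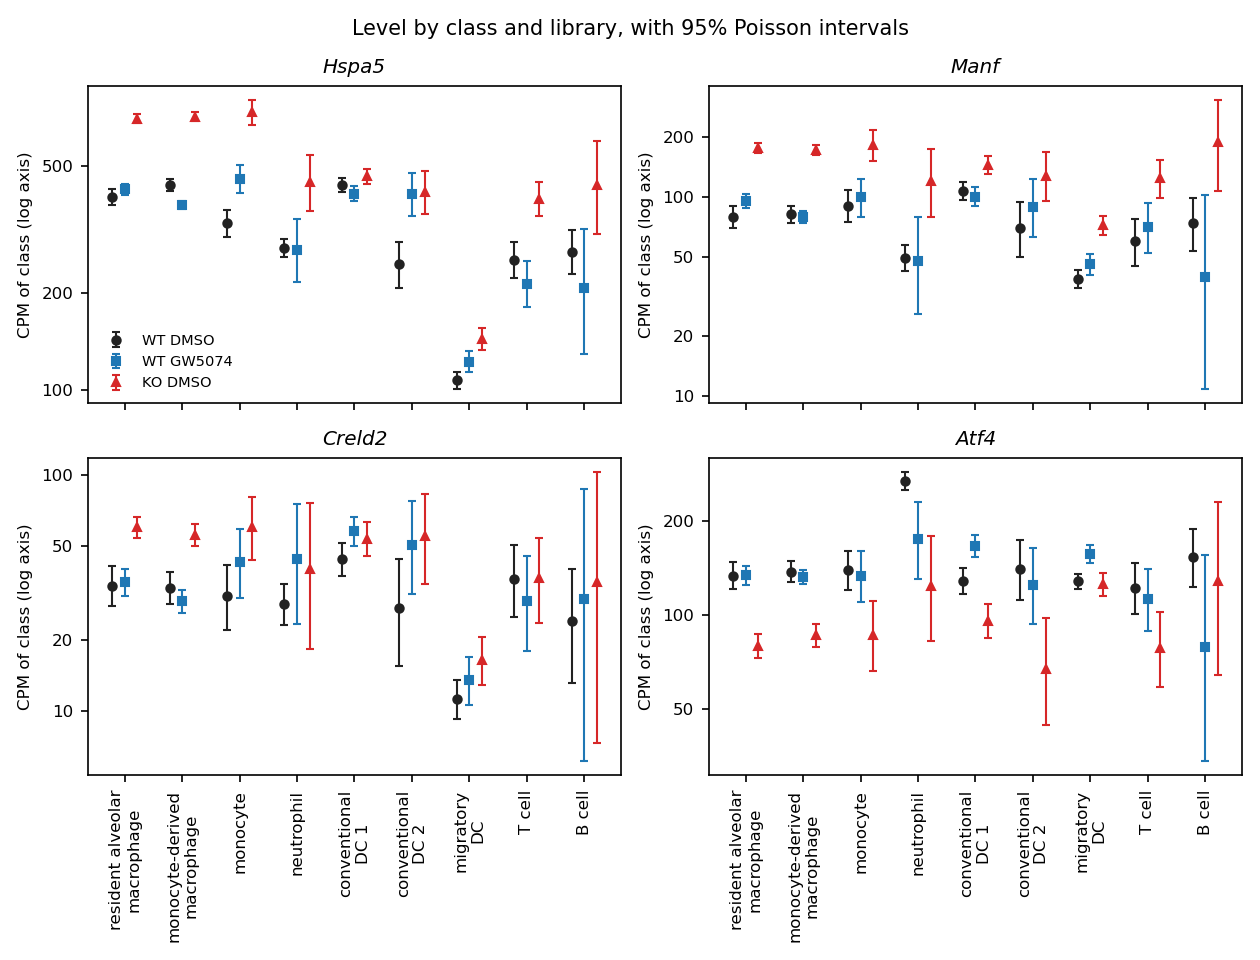
Level of Hspa5, Manf, Creld2 and Atf4 (CPM of the class, log axis) in the 9 cell classes, 1 point per library with its 95% Poisson interval, which covers counting error only. KO DMSO (red triangles) lies above both WT libraries for Hspa5 and Manf in both macrophage classes, and below both for Atf4.

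In the PERK-ATF4 branch Atf4 was lower in KO DMSO. It stood at 134, 134 and 79.6 CPM in resident alveolar macrophages (KO over WT DMSO -0.75, 95% interval -0.94 to -0.56) and at 138, 133 and 86.4 CPM in monocyte-derived macrophages (-0.68, 95% interval -0.84 to -0.51). It was lower past the limit in 6 of 9 classes and below 0 in all 9. The others were monocytes (139, 134 and 86.6 CPM; -0.69), neutrophils (269.5, 175 and 124 CPM; -1.12), conventional dendritic cells 2 (141, 125 and 67.4 CPM; -1.06) and T cells (122, 113 and 78.7 CPM; -0.64). Migratory dendritic cells, at -0.032, were nearly level. Under TMM scaling Atf4 was lower in 4 classes and not in monocyte-derived macrophages, where its ratio was then -0.57 and ranged from -0.69 to -0.49 over 8 alternative settings. With cells thinned, or with non-neutrophils that held an S100a8 or S100a9 UMI left out, it was lower in 3.

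The targets of ATF4 among the members did not follow it together. Ddit3 was higher in neutrophils (1.01, from 16 against 123 UMIs) and in migratory dendritic cells (16.6, 20.5 and 28.0 CPM; 0.75, 95% interval 0.41 to 1.10). Sesn2 was lower in conventional dendritic cells 1 (27.3, 21.8 and 16.3 CPM; -0.74, 95% interval -1.30 to -0.21). Ppp1r15a was higher in resident alveolar macrophages (5.65, 11.6 and 10.5 CPM; 0.90, 95% interval 0.11 to 1.76, from 65 against 17 UMIs) and lower in T cells (43.6, 26.4 and 14.6 CPM; -1.58, 95% interval -2.74 to -0.56, from 10 against 41 UMIs). The first of these Ppp1r15a calls was lost under a stricter gate, thinning (ratio 1.89), and without cells holding S100a8 or S100a9 (1.84), where fewer UMIs remain. The T cell call was lost with thinned cells. Both pairs lie under the alternative minimum of 50 CPM, which therefore leaves them out whatever their ratio. Trib3, Asns and Chac1 stayed below 10 CPM in nearly every sum and were tested in no class. In monocyte-derived macrophages they stood at 5.78, 3.81 and 4.08 CPM, 2.89, 2.09 and 1.63 CPM and 0.826, 0.286 and 0.327 CPM.

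Sensors and Xbp1 were lower in KO DMSO where they differed. Xbp1 was lower in the 3 dendritic classes, at 134, 123 and 82.4 CPM in conventional dendritic cells 1 (-0.70, 95% interval -0.94 to -0.47), 192, 188 and 125 CPM in type 2 (-0.62, 95% interval -1.13 to -0.13) and 67.4, 59.0 and 43.9 CPM in migratory dendritic cells (-0.62, 95% interval -0.85 to -0.38). Its ratios in the resident and monocyte-derived macrophages were 0.14 and -0.018. Atf6 was lower in monocytes (-0.91), migratory dendritic cells (-0.74) and T cells (106, 77.6 and 42.2 CPM; -1.33). Eif2ak3 was lower in monocyte-derived macrophages (37.6, 31.3 and 24.3 CPM; -0.63, 95% interval -0.95 to -0.31) and migratory dendritic cells (-0.61), and Ern1 in conventional dendritic cells 1 (-0.61). Under TMM scaling Xbp1 was lower in 1 class and Eif2ak3 in none. Degradation genes hardly differed: Derl2 was higher in neutrophils, conventional dendritic cells 2 and B cells, each from at most 23 KO DMSO UMIs, Herpud1 was lower in conventional dendritic cells 1 (157, 153 and 103 CPM; -0.61, 95% interval -0.83 to -0.40) and Selenos in neutrophils (-0.69). Edem1, Sel1l, Syvn1 and Derl1 were past the limit in no class.

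With GW5074, the macrophage levels of nearly all members lay within 1.5-fold of those in WT DMSO. In monocyte-derived macrophages no member of 30 tested was past the limit (background 0.867% higher and 1.7% lower), with ratios from -0.41 to 0.30. In resident alveolar macrophages only Ppp1r15a was higher, at 1.04, 95% interval 0.26 to 1.90, against a background of 1.83%, and none was lower (1.32%). That call was lost under a stricter gate and without cells holding S100a8 or S100a9 (ratio 1.77). The higher minimum leaves this pair out whatever its ratio. Members were 2 higher (4.52%) and 1 lower (6.5%) in monocytes, 5 higher (7.47%) and 6 lower (9.31%) in neutrophils, 0 higher (5.3%) and 0 lower (2.27%) in conventional dendritic cells 1 and 4 higher (4.27%) and 2 lower (4.0%) in type 2. Migratory dendritic cells had 2 higher (5.51%) and 0 lower (4.29%), T cells 0 higher (4.18%) and 1 lower (3.9%) and B cells 1 higher (4.18%) and 0 lower (2.31%).

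Neutrophils held 11 of the 25 calls, from 179 WT GW5074 against 3103 WT DMSO cells. There Calr (0.86), Hsp90b1 (0.71), Sdf2l1 (0.89), Pdia4 (1.12) and Pdia6 (0.72) were higher. Dnajb9 (-2.44), Eif2ak3 (-1.37), Atf6 (-0.78), Xbp1 (-0.63), Atf4 (-0.62) and Dnajc3 (-0.61) were lower. The Dnajb9 call comes from few WT GW5074 counts, in a sum of 296387 UMIs, and was lost with cells thinned to 1000 UMIs. The WT GW5074 neutrophils had a summed neutrophil marker level of 17147 CPM against 45775 in WT DMSO and 31001 in KO DMSO, and a median mitochondrial share of 1.66% against 0.512% in WT DMSO. The part of cell purity in these ratios was not tested.

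Outside neutrophils, the GW5074 calls were scattered. Herpud1 lay below 0 in all 9 classes, from -0.96 to -0.033, with 1 of them past the limit. Conventional dendritic cells 2 had Hspa5 (246, 408 and 414 CPM; 0.73, 95% interval 0.40 to 1.06), Hsp90b1 (0.81), Canx (0.65) and Derl2 (24 against 17 UMIs) higher and Herpud1 (-0.96) and Eif2ak3 (-0.98) lower. For Hspa5 and Hsp90b1 in this class, KO DMSO had much the same level as WT GW5074, and WT DMSO was the low library. Migratory dendritic cells had Hsp90b1 (0.71, 95% interval 0.60 to 0.81) and Pdia6 (0.69, 95% interval 0.45 to 0.94) higher. Monocytes had Pdia3 (0.63) and Pdia4 (0.85) higher and Atf6 (-0.70) lower. T cells had Ern1 lower (-0.92) and B cells Derl2 higher (1.63, from 8 against 15 UMIs).

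**Figure D5:**
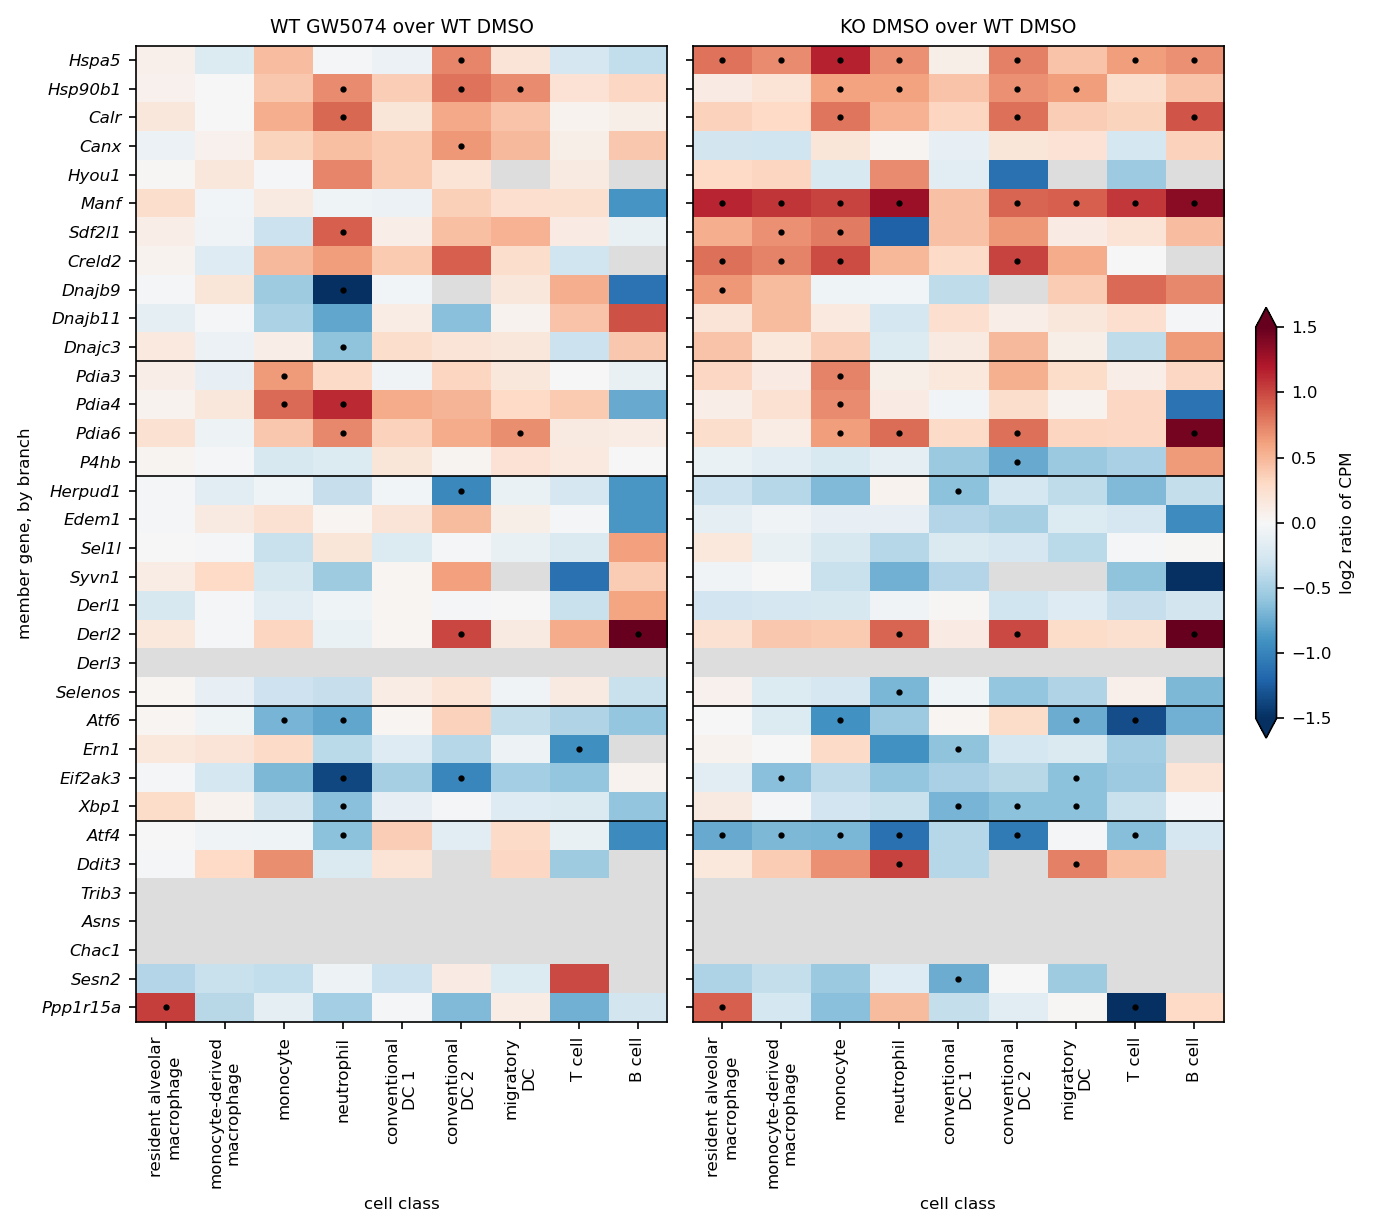
Log2 ratio of CPM (colour, red higher and blue lower) for WT GW5074 over WT DMSO (left) and KO DMSO over WT DMSO (right), for each member gene (rows, by branch) in each cell class (columns). Black dots mark pairs past 1.5-fold with a counting interval that excludes 1, and grey marks pairs under the minimum level. The Hspa5 and Manf rows are red and the Atf4 row is blue across most classes on the right.

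WT DMSO, which enters every ratio, stood apart from both other libraries in its neutrophil RNA. The summed level of the 12 neutrophil markers ranged from 914 to 5667 CPM over the 8 other classes of WT DMSO, from 186 to 1813 in WT GW5074 and from 80.1 to 3611 in KO DMSO. At most 5 of the 12 were at 0 in any class of a library. With non-neutrophils that held an S100a8 or S100a9 UMI left out, a setting added after the data were seen, 42 of the 61 KO calls remained. In monocyte-derived macrophages Hspa5 was then at 0.62 and Manf at 1.33. Median depth in this class was 4193, 2861 and 3721 UMIs per cell. The share of cycling cells was 3.92%, 2.74% and 2.72%, and the median mitochondrial share 2.21%, 2.65% and 2.47%. The part of depth and of free RNA in the remaining ratios was not tested.

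A list of 108 other genes of the same pathways gave 106 measured ones, of which 100 passed the filter for class contrasts. In migratory dendritic cells 18 of these rose and 25 fell (backgrounds 23.6% and 23.7%), with a median of -0.11 against -0.61 for the members. The 3 highest and 3 lowest are named. Mthfd2, a mitochondrial folate enzyme and ATF4 target, was at 3.32 ± 0.091, the adaptor Traf2 at 1.98 ± 0.12 and the co-chaperone Dnajc1 at 1.82 ± 0.077. Lowest were Nucb2 at -2.30 ± 0.20, the serine synthesis enzyme Phgdh at -1.99 ± 0.41 and Cebpb at -1.83 ± 0.13. In resident alveolar macrophages 10 rose and 9 fell (backgrounds 14.9% and 16.1%), and in monocyte-derived macrophages 16 rose and 6 fell (12.4% and 11.2%).

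Within migratory dendritic cells, the class with the most cells, 7 of 91 other pathway genes tested were higher in KO DMSO than in WT DMSO and 10 were lower, against the class backgrounds given above. The highest were Atf5 (19.5 against 9.16 CPM; 1.09, 95% interval 0.65 to 1.53), Atf3 (42.2 against 23.9 CPM; 0.82, 95% interval 0.54 to 1.10) and Mthfd2 (263 against 155 CPM; 0.76, 95% interval 0.65 to 0.87). The lowest were Ddit4 (11.5 against 58.4 CPM; -2.34, 95% interval -2.78 to -1.93), the oxidase Qsox1 (7.10 against 14.5 CPM; -1.03, 95% interval -1.64 to -0.47) and the ubiquitin-conjugating enzyme Ube2g2 (22.4 against 45.8 CPM; -1.03, 95% interval -1.36 to -0.72). For GW5074, 3 were higher and 1 lower. Cebpb (0.80, 95% interval 0.57 to 1.02), Atf3 (0.78, 95% interval 0.51 to 1.05) and Fkbp2 (0.66, 95% interval 0.41 to 0.90) were higher, and Ddit4, an inhibitor of mTORC1, was lower (7.08 against 58.4 CPM; -3.04, 95% interval -3.55 to -2.58). Ddit4 was thus high in the WT DMSO library alone. In monocyte-derived macrophages 1 of 92 other genes was higher and 3 lower in KO DMSO, and none of 93 was past the limit either way with GW5074.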

How the data were processed

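The deposited matrices hold raw UMI counts per gene and cell barcode, whole numbers, as the authors made them with Cell Ranger 2.1.1 and mm10, per the submitters' processing notes. The labels name both a SeekOne chip and 10x Genomics. No barcode in the matrices fell under 500 UMIs, so cells had been filtered by depth before deposit. Because 3' ends were counted, levels were not scaled by transcript length, and differences in capture between genes were not tested.

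Barcodes with fewer than 200 detected genes or a mitochondrial share over 20% were dropped (50, 17 and 36 per library; median depths 2438.5, 2276 and 2937 UMIs). Each cell was assigned to the class with the highest mean scaled marker level, with a score of at least 0.4, a gap of 0.2 to the next class and 3 markers detected. These thresholds were set after the data were seen. Of the cells, 14938 fell in no class, 125 in classes under 50 cells in a library, and 1323 of the classed ones lay within 0.1 of the score limit. No doublet caller was run, and the gap leaves out only cells whose 2 best class scores lie close. Classed cells still held markers of other classes. Summed monocyte-derived macrophage markers were at 4416 CPM in T cells, against 3800 CPM of T cell markers. In monocytes they were at 6079 CPM, against 5280 CPM of monocyte markers. Per 10000 UMIs of a cell, their medians were 0 in T cells and 37.8 in monocytes, against 50.6 and 50.7 for the own markers. Siglec5, Ero1a and Ero1b were not among the features.

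UMIs were summed per class and library. Class contrasts used edgeR 4.0.16 (quasi-likelihood, TMM, filterByExpr, R 4.3.3), with DESeq2 1.42.0 as an alternative, and were tested on simulated counts. Condition ratios used conditional binomial intervals and levels Poisson intervals, both exact (scipy 1.17.1). Gene positions came from GENCODE M21 (mm10). The members and lists were chosen with earlier results of these data known. Every member is accounted for. Values per library are printed for members called in a class contrast or past the limit in a macrophage class, otherwise for those with the most UMIs of a branch, and for at most 3 other pathway genes each way in the class with the most cells. Alternatives were other scalings, filters, gates, thinning to 1000 UMIs, leaving out cycling cells, and leaving out each library. No paired design was present.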

Additional observations from a re-analysis of the deposited data

Results flagged for a closer look

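Ppp1r15a was the 1 member past the limit in opposite directions in 2 classes of the same comparison. Its log2 ratio of KO DMSO over WT DMSO was 0.90 in resident alveolar macrophages and -1.58 in T cells, with 1 library per group. Both calls were lost with cells thinned to 1000 UMIs, where fewer UMIs remain. Neither pair reaches 50 CPM, so the setting with a minimum of 50 CPM and 100 UMIs leaves both out whatever their ratio. The difference between the classes was not tested.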

How the results depend on the processing

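Of the 75 class calls, 73 held with RLE size factors, 70 with DESeq2, 75 without the low-count filter, 70 without the library term, 71 under a stricter gate, 66 under a stricter cell filter, 56 with cells thinned to 1000 UMIs and 74 without cycling cells. Without WT DMSO, WT GW5074 and KO DMSO, 50, 70 and 69 held. Of the 61 KO calls, 52 held with TMM factors, 57 with means per cell, 44 under the stricter gate, 25 with thinned cells and 42 without cells holding S100a8 or S100a9. Of the called values, 2 changed sign. Pdia4 did so in B cells without WT DMSO (from -0.33 there to 0.87 without KO DMSO). With cells thinned, so did the KO ratio of Derl2 in conventional dendritic cells 2 (-0.086). Thinning left out 2375 of 3103 WT DMSO neutrophils, so fewer counts enter there, and the cause of other changes was not tested.

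Counts of members that moved by over 1.5 times were as follows. With a limit of 1.3-fold, 29 pairs were higher with GW5074, 7 members were higher in KO monocyte-derived macrophages and 32 pairs were lower in KO. With thinned cells, 5 pairs were lower with GW5074, 23 were higher and 11 lower in KO, 3 members were higher in KO resident alveolar macrophages, and 0 were lower in KO monocyte-derived macrophages. TMM factors gave 13 pairs lower in KO and 0 members lower in KO monocyte-derived macrophages, where the higher minimum and the removal of cells with S100a8 or S100a9 each gave 1. The stricter gate gave 2 members lower in KO resident alveolar macrophages.

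For class contrasts, resident alveolar macrophages had 10 members higher without the filter and 8 under the stricter gate. They had 2 lower with RLE, DESeq2, the stricter gate or no cycling cells, and 3 without the library term or with thinned cells. Monocytes had 2 higher with RLE or DESeq2, 1 with the stricter cell filter, and 1 lower when thinned. Neutrophils had 2 higher and 2 lower when thinned, and 1 lower with the stricter cell filter. Conventional dendritic cells 1 had 7 higher without the filter, 8 when thinned, and 1 lower under the stricter gate. Conventional dendritic cells 2 had 0 lower without the library term, under the stricter gate or when thinned. T cells had 5 lower without the filter or under the stricter gate, and B cells 3 lower when thinned. Leaving out each library in turn gave 5 to 8 higher and 1 to 3 lower in resident alveolar macrophages, 6 to 10 and 3 in monocyte-derived macrophages, 1 to 5 and 2 to 3 in monocytes, 1 to 9 and 2 to 6 in neutrophils, 4 to 7 and 0 in conventional dendritic cells 1, and 3 to 4 and 0 to 1 in type 2. It gave 5 to 7 and 14 to 16 in migratory dendritic cells, 0 and 3 to 5 in T cells, and 1 to 5 and 2 to 5 in B cells. No paired analysis was possible because each group has a single library.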
